A study of Mus musculus with 6 samples.

Results

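The response of Dnmt3a-null (KO) neural stem cells to the withdrawal of mitogens was read from the KO channel of each of 6 arrays, which is 6 of the 12 channels measured. Every array carried KO RNA in one dye and wild-type (WT) RNA in the other. The cells were grown from the lateral ventricle walls (subventricular zone) of mice at postnatal day 14 to 21, and the labels do not say how many animals a culture pooled, or in which cells and at what age Dnmt3a was lost. In the proliferating group (4 KO channels) the cells were kept in serum-free B27 medium with 10 ng/ml EGF and 10 ng/ml FGF-2. In the differentiating group (2 KO channels) such cells were replated with the mitogens for 2 days and then held without them for 3 days, which the labels describe as spontaneous neuronal and glial differentiation. KO RNA was in Cy5 on proliferating replicates 1 and 3 and on differentiating replicate 2, and in Cy3 on the others, and the labels call the replicates biological. The WT groups were cultured and hybridised in the same way and share the arrays.

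EGF and FGF-2 act through receptor tyrosine kinases and the ERK pathway, which keeps D-type cyclins high, frees E2F factors from the Rb protein and so drives DNA replication and mitosis in neural stem cells. Cells of the subventricular zone that lose these mitogens leave the cell cycle and can mature into astrocytes, oligodendrocytes or neurons. Dnmt3a is a de novo DNA methyltransferase that places methyl groups on cytosines and is active in postnatal neural stem cells, where it has been tied to the expression of neurogenic genes.

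Levels below are log2 normalized signals of single channels, and a change is the log2 level in differentiating minus that in proliferating cells. A gene passed where the Benjamini-Hochberg adjusted p of limma's separate-channel fit over 18033 genes was under 0.05, 2-sided, and "rose" and "fell" are used only for genes that passed. Between 53.3% and 59.1% of gene spots were well above background in the KO channels, and 3 to 204 gene spots per KO channel were saturated. Of the genes given below, Angpt2, Rab26, Car3, Hes1, Wnt5a and Spp1 were well above background in 1 of 2 differentiating KO channels, Fxyd1, Mobp and Bmp6 in 1 of 4 proliferating ones, and Entpd2, Gjb6, Enpp6, Smad7, Nkd2, Ifit3, Pdgfrb, Chst1, Syt1 and Mal in 2 of 4, so their folds are set against signals near background. Igfbp2, Lgals1 and Dusp6 had 1 saturated proliferating KO channel and Bcan 1 saturated differentiating one. All 4 proliferating arrays lay on 1 slide and were scanned together, and both differentiating arrays lay on another, so slide, scan and culture condition cannot be told apart in the change within KO cells. With 2 channels against 4 there are 15 ways to divide the samples, so an exact permutation test of a single gene cannot reach p = 0.05, and the p-values rest on the spread that the fit shares over all 12 channels. In whole cultures, a change in the share of cells of a type and a change in RNA per cell cannot be told apart.

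The KO channel of proliferating replicate 4 stood apart from the other proliferating channels. Across genes, its levels had a correlation of 0.957 with both differentiating KO channels, where replicates 1 to 3 had 0.912 to 0.936. Among the 2750 genes that passed in KO cells, it was the proliferating channel nearest to the differentiating ones for 1657 (60.3%), and the other 3 were for 349 to 391 each. The mean level of the mitosis genes was 11.95, 11.92 and 11.67 in proliferating replicates 1 to 3, 10.55 in replicate 4, and 9.0 and 8.72 in the differentiating channels. The WT channel of the same array lay at 10.01, against 11.44 to 11.70 on the other proliferating arrays. Xist, the noncoding RNA that coats the silenced X of female cells, had levels of 11.27 and 11.06 in the KO channels of proliferating replicates 3 and 4 and 5.97 to 6.03 in the other 4, a split that runs between replicates of the proliferating group. The 6 tested sex-linked genes, Xist and Y-linked genes among them, had mean levels of 8.47 and 8.75 in the KO channels of replicates 3 and 4. The WT channels of the same arrays had 7.29 and 7.31. On the other arrays the means were 7.72 to 7.95 in KO and 7.8 to 7.96 in WT channels. These means pool Xist with Y-linked genes, which mark opposite sexes. The change in KO cells was -2.58 for Xist and -0.15 to 0.51 for the Y-linked genes. The difference from the WT response was 1.01 for Xist and -2.81 to -0.31 for the Y-linked genes. None of these differences passed in a fit of KO over WT log ratios (adjusted p = 0.648 to 0.729, limma). The part of replicate 4 or of the sex-linked genes in the changes and differences below was not tested. Counts are given without replicate 4 and without replicates 3 and 4, both channels of an array being left out together. The naming rule (the largest changes, the smallest p of each list and of the difference) chose 117 genes that passed in KO cells, of which 23 passed whichever single array was left out and all 117 without replicate 4.

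Dnmt3a itself did not pass in KO cells. At its brightest probe (chromosome 12, 3825243 to 3826024, build mm7) the KO levels were 7.64, 7.66, 7.96 and 7.43 in proliferating replicates 1 to 4 and 7.82 and 7.68 in differentiating replicates 1 and 2. The groups overlapped, with a change of 0.08 ± 0.20 (SE, adjusted p = 0.822, limma). WT levels were higher on every array, at 8.53 to 8.75 when proliferating and 9.30 and 8.96 when differentiating. A probe at 3830965 to 3831024 read 6.43 to 6.90 and then 6.92 and 6.99 in KO cells, against 7.97 to 8.47 in WT cells, and a probe at 3826602 to 3826661 was well above background in none of the 6 KO channels. The labels do not say where the deletion lies relative to these probes, so the remaining signal does not measure it.

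In KO cells 1652 genes (9.16% of those tested) rose and 1098 (6.09%) fell when mitogens were withdrawn, and 1490 of the 2750 changed by at least 2-fold. The KO channels of the groups did not overlap for 2743 of them, while across all genes 44.1% did not overlap, 25.0% lying wholly higher and 19.1% wholly lower in differentiating cells. The size of this count depended on every array: 4727 genes passed without replicate 4, 435, 617 and 975 without proliferating replicate 1, 2 or 3, and 275 or 314 without differentiating replicate 1 or 2. Without replicates 3 and 4, 1203 passed. The split also depends on scaling. With each channel centred on its median in place of between-array quantile scaling, 962 genes rose and 2837 fell, and the median over all genes moved from 0.0495 to -0.178, so the excess of rises (60.1% of passed genes) turned into an excess of falls.

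Among the named genes Padi2 rose most and Angpt2 fell most. Padi2, a peptidylarginine deiminase that converts arginine to citrulline and is found in oligodendrocytes, had proliferating levels of 7.45, 6.90, 6.24 and 8.19 and differentiating levels of 13.53 and 11.74. This was a change of 5.44 ± 0.70 (43.4-fold, adjusted p = 0.00239), and the call held without any single array. Slc14a1, the urea transporter of astrocytes, went from 7.93, 6.76, 6.47 and 9.57 to 12.91 and 12.25 (4.90 ± 0.82, adjusted p = 0.00664). Replicate 4 was the highest proliferating channel for both genes and lay below the differentiating ones. Gfap, the intermediate filament of astrocytes, had levels of 8.39, 7.40, 9.33 and 11.54 and then 14.80 and 13.16, a change of 4.81 ± 1.31 (28.1-fold, adjusted p = 0.0368). The proliferating channels spanned a wide range, and without replicate 4 the adjusted p of Gfap was 0.00898 (limma). Its call was lost without proliferating replicate 1, 2 or 3, and with the KO channels fitted alone (adjusted p = 0.0543, limma). Ephx2, the soluble epoxide hydrolase, rose 19.8-fold, Clu, the secreted chaperone clusterin, 19.6-fold, and Naaa, a lysosomal amidase, 19-fold. Kcne1l (a potassium channel subunit), Entpd2 (an ectonucleotidase of neural progenitors and glia), Eva1a, Fxyd1 (a regulator of the sodium pump), Hspb8 (a small heat shock protein), Bdh2, Nkx6-2 (a homeobox factor of oligodendrocytes) and Pcp4 rose by 3.83 to 4.16 on the log2 scale. Of these 14 genes, Padi2, Eva1a and Fxyd1 still passed whichever single array was left out.

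Angpt2, a ligand of the Tie2 receptor, had proliferating levels of 10.76, 11.60, 13.38 and 10.53 and differentiating levels of 6.45 and 6.27, a change of -5.21 ± 0.73 (37-fold, adjusted p = 0.00354). Fbln2, the matrix protein fibulin-2, went from 14.21, 14.10, 14.78 and 12.64 to 8.87 and 8.66 (-5.17 ± 1.13, adjusted p = 0.0172), and Col18a1, a basement membrane collagen, from 11.72, 11.30, 13.00 and 11.85 to 7.21 and 7.30 (-4.71 ± 0.61, adjusted p = 0.00255). The groups were far apart for all 3 genes, although single calls depended on the arrays: without differentiating replicate 1 or 2 the adjusted p of Angpt2 reached 0.0715 and that of Fbln2 0.178. Igfbp2, a carrier of insulin-like growth factors, fell from 15.20, 15.83, 15.34 and 14.84 to 10.81 and 11.51 (-4.15 ± 0.37, 17.7-fold, adjusted p = 0.000913). Lgals1 (galectin-1), Car3 (a carbonic anhydrase), Pimreg and Pbk (both tied to mitosis) fell 14.9-fold, 20.5-fold, 14.7-fold and 12.7-fold, and like Igfbp2 they passed without any single array. Dhh, a hedgehog ligand, went from 11.06, 12.14, 14.38 and 10.94 to 7.07 and 7.95 (-4.62 ± 0.96, adjusted p = 0.0143). Rab26, Tuba6, Nrgn, Igfbp3 and Rab3b had changes of -3.51 to -4.67 on the log2 scale.

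**Figure D1:**
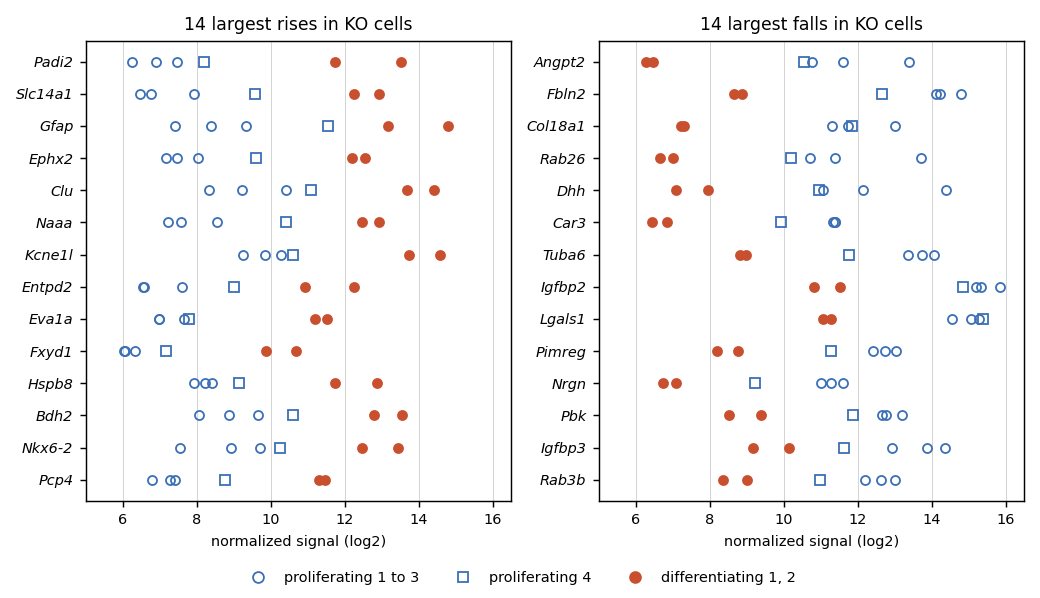
Normalized log2 signal (horizontal axis) of the 14 most strongly raised and the 14 most strongly lowered named genes in KO cells, 1 symbol per KO channel: open circles for proliferating replicates 1 to 3, open squares for proliferating replicate 4, filled circles for differentiating replicates 1 and 2. Groups do not overlap by the rule that chose the genes, and replicate 4 is the proliferating channel nearest to the differentiating ones for most of the genes, as for Slc14a1 at 9.57 and Car3 at 9.92.

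All 32 mitosis genes of the list fell in KO cells, with a median change of -2.69 against 0.0495 over all genes tested. Promoters of such genes often hold CCAAT boxes, bound by the factor NF-Y, and cell cycle homology regions (CHR), where the DREAM and MuvB complexes bind, and withdrawal of growth signals is known to bring DREAM onto them. Because these genes fell together, the 250 bases before the RefSeq start of the 4 matched members with the smallest p are shown, 5′ to 3′ in the direction of transcription, with CCAAT boxes (CCAAT, or ATTGG for the other strand) and CHR letters (TTTGAA or TTTAAA, or TTCAAA for the other strand) in capitals.
Ccnb1 (GRCm38.p6, chr13:100786487-100786736, minus strand): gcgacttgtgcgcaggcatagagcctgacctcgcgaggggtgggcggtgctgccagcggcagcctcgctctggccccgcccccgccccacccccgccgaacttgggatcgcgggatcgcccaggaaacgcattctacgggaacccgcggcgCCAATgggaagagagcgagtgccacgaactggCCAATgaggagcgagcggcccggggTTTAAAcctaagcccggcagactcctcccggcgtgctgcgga
Ccnb2 (GRCm38.p6, chr9:70421555-70421804, minus strand): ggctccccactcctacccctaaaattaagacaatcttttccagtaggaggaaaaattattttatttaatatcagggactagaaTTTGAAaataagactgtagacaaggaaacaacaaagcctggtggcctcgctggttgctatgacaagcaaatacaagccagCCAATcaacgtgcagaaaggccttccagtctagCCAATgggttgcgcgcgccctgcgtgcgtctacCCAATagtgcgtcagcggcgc
Cdca8 (GRCm38.p6, chr4:124936918-124937167, minus strand): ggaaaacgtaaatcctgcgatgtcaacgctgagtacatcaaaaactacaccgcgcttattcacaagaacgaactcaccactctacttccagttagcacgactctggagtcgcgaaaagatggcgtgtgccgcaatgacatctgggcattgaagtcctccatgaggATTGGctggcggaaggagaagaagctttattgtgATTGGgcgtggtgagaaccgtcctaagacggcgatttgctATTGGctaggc
Mki67 (GRCm38.p6, chr7:135716380-135716629, minus strand): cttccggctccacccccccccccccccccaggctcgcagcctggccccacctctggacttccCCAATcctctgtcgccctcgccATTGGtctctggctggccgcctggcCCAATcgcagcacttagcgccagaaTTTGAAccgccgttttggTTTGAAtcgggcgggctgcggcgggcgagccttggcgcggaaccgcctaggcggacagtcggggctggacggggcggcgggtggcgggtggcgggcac
The Ccnb1 window held 2 CCAAT boxes and 1 CHR match, that of Ccnb2 3 and 1, that of Cdca8 3 and 0, and that of Mki67 3 and 2. Of the 32 genes, 27 matched a RefSeq promoter (GRCm38.p6), and 20 of the 27 windows (74.1%) held a CCAAT box and 13 (48.1%) a CHR match, against 34.5% and 25.5% of 27018 windows of the same length. Both were present in 11 of 27 (40.7%), against 8.99% of all. These are matches of letters and not measured sites, and the list was assembled with the results of these data known.

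Ccnb1, the cyclin B1 that starts mitosis, had KO levels of 11.79, 11.59, 11.77 and 10.86 when proliferating and 8.57 and 7.82 when differentiating, a change of -3.31 ± 0.33 (9.93-fold, adjusted p = 0.000913). Ccnb2 went from 14.12, 13.75, 13.22 and 12.98 to 10.39 and 9.67 (-3.49 ± 0.39, 11.2-fold, adjusted p = 0.00149). The spindle assembly factor Tpx2 went from 12.38, 12.16, 11.56 and 11.15 to 8.88 and 8.81 (-2.97 ± 0.36, adjusted p = 0.00184). For these 3 genes replicate 4 was the lowest proliferating channel, the groups stayed apart, and the calls held without any single array. Cdca8 (borealin, of the chromosomal passenger complex) fell 8.58-fold, Mki67 (the proliferation marker Ki-67) 8.97-fold and Cenpf (a kinetochore protein) 6.43-fold. The checkpoint kinase Ttk was not well above background when differentiating, and its fall of 2.22-fold (adjusted p = 0.0353) is set against signals near background. All 32 also fell without replicate 4 and without replicates 3 and 4, while 19 to 24 did without proliferating replicate 1, 2 or 3, 3 without differentiating replicate 1, 3 without differentiating replicate 2, and 27 with the KO channels fitted alone.

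Of 32 DNA replication genes 10 fell. All 32 had a lower mean in differentiating KO cells (median change -1.67). Gmnn, the licensing inhibitor geminin, went from 13.97, 13.99, 13.60 and 12.57 to 10.72 and 10.89 (-2.73 ± 0.39, adjusted p = 0.00386), and Rrm1, a ribonucleotide reductase subunit, from 13.40, 13.33, 13.02 and 12.36 to 10.85 and 11.09 (-2.06 ± 0.32, adjusted p = 0.00506). Uhrf1, which guides maintenance methylation to replicated DNA, went from 12.72, 13.29, 12.85 and 10.96 to 9.57 and 9.84 (-2.75 ± 0.63, adjusted p = 0.0202). Tyms, thymidylate synthase, had levels of 12.50, 12.73, 12.56 and 10.99 and then 10.29 and 10.14 (adjusted p = 0.0273). Replicate 4 lay near the differentiating level: the list's mean was 11.50, 12, 11.77 and 9.88 in proliferating replicates 1 to 4, and 9.57 and 9.63 in differentiating cells. Without replicate 4 all 32 fell, without replicates 3 and 4, 16 did, without any other single proliferating replicate 2 did, and without differentiating replicate 1 or 2 none did. Of 27 replication gene windows, 7 (25.9%) held an E2F letter match (TTTCCCGC, TTTGGCGC, TTTCGCGC or TTTGCCGC, either strand), against 1.91% of all windows.

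Upstream of replication, 6 of 21 G1 cyclin, E2F and Rb genes fell and none rose (median -1.0). Ccnd2, the main D-type cyclin of neural progenitors, had levels of 14.44, 15.77, 15.22 and 13.09 and then 11.42 and 11.60 (-3.12 ± 0.78, adjusted p = 0.0277). Ccnd1 went from 12.39, 13.45, 14.28 and 11.07 to 9.34 and 9.88 (-3.19 ± 0.87, adjusted p = 0.0364). Cdk6, a kinase partner of the D cyclins, had proliferating levels of 10.25, 9.59, 10.11 and 10.27, with replicate 4 among the highest, and differentiating levels of 7.29 and 7.89 (-2.46 ± 0.23, 5.51-fold, adjusted p = 0.000913), and it passed without any single array. E2f8, E2f2 and Ccne1, which act at the start of S phase, fell 3.39-fold, 3.19-fold and 3.22-fold. Cdk4 had a change of -0.63 and an adjusted p of 0.0714. The list's count was 13 without replicate 4 and 1 or 2 without any one of the other arrays. Among 17 cell cycle inhibitors and growth arrest genes there was no common rise: Gadd45b, a stress and growth arrest gene, rose 5.90-fold (adjusted p = 0.00817), and Cdkn2c (p18) and Cdkn2a (the p16 and p19Arf locus) fell 1.70-fold and 3.22-fold. Cdkn1a (p21) had levels of 11.44 to 12.22 and then 10.66 and 11.17 (adjusted p = 0.122).

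Targets of ERK signalling that feed back on the pathway had a median change of -1.28, with 3 of 16 measured genes falling and none rising. Dusp6, the phosphatase that inactivates ERK, had levels of 14.07, 15.19, 15.24 and 13.35 with mitogens and 10.15 and 11.83 without (-3.48 ± 0.75, 11.1-fold, adjusted p = 0.0166). Etv5, an ETS factor induced by FGF signals, went from 9.31, 9.79, 10.20 and 8.66 to 6.61 and 7.31 (-2.53 ± 0.55, adjusted p = 0.0171). Ccnd1 is the third. The feedback inhibitors Spry4 and Spry2 had changes of -1.03 and -1.06 (adjusted p = 0.0582 and 0.0888). Without replicate 4, 9 of the 16 fell, and without any other single array none did. None of 16 immediate early genes passed limma's test in either direction, and 2 had an unadjusted p under 0.05 (median 0.0448, which turned to -0.215 under median centring), and Egr1 had a change of -1.70 (adjusted p = 0.106).

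Neural stem and radial glia genes passed in a share below the 15.2% of all genes that passed in either direction. Of 24, Nes and Hes1 fell and Nr2e1 rose (median 0.0717, which turned to -0.26 under median centring). Nes, the intermediate filament nestin, went from 14.53, 14.62, 14.96 and 13.71 to 11.35 and 11.56 (-3.00 ± 0.35, 8.02-fold, adjusted p = 0.00171), and passed without any single array. Hes1, a Notch effector that holds back differentiation, went from 8.80, 8.75, 8.95 and 7.52 to 6.72 and 6.55 (-1.88 ± 0.40, adjusted p = 0.0165). Nr2e1 (Tlx), a nuclear receptor of adult neural stem cells, rose 1.78-fold, from 10.77 to 10.98 up to 11.70 and 11.74 (adjusted p = 0.00747), a call that ended under median centring and without proliferating replicate 1 or either differentiating replicate. Sox2, the other marker by which the labels describe the cultures, stayed between 12.16 and 12.92 in all 6 KO channels (change 0.02 ± 0.23, adjusted p = 0.959). Vim, the filament vimentin, had a change of -0.12 in KO cells (adjusted p = 0.762).

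Of 29 astrocyte genes 8 rose and 1 fell, with a median change of 1.02 (0.599 under median centring). Gjb6, the gap junction protein connexin 30, had levels of 6.95, 6.86, 5.98 and 6.25 when proliferating and 10.13 and 9.61 when differentiating (3.36 ± 0.38, 10.3-fold, adjusted p = 0.00149), and passed without any single array. Aqp4, the water channel of astrocyte endfeet, went from 9.25, 9.26, 8.55 and 10.72 to 13.15 and 12.68 (3.47 ± 0.52, 11.1-fold, adjusted p = 0.0046), and Gja1 (connexin 43) from 11.48, 10.69, 11.26 and 11 to 13.61 and 13.83 (2.61 ± 0.40, adjusted p = 0.00497). The groups did not overlap for any of the 3. Aldoc (the brain aldolase), Slc1a2 (the glutamate transporter GLT-1) and Glul (glutamine synthetase) rose 2.87-fold, 2.49-fold and 2.92-fold, beside Gfap and Clu above. Acsbg1, an acyl-CoA synthetase, fell 2.29-fold (adjusted p = 0.0304), and Aldh1l1, a folate enzyme used as an astrocyte marker, had levels of 14.85 to 15.38 and then 14.41 and 14.00 (adjusted p = 0.237). Without replicate 4, 16 astrocyte genes rose, and without another single array 1 to 6 did, the lowest count being without differentiating replicate 1. Without replicates 3 and 4, 9 rose.

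Of 24 myelin and mature oligodendrocyte genes, 10 rose and none fell, with a median change of 1.60 (1.32 under median centring). Mobp, a structural protein of compact myelin, had levels of 6.01, 6.39, 6.38 and 7.48 and then 10.28 and 9.72, a change of 3.43 ± 0.38 (10.8-fold, adjusted p = 0.00149), of which 1 proliferating and both differentiating levels were well above background. It had the smallest p of the list and passed without any single array. The 250 bases before its RefSeq start are shown because Sox factors direct myelin genes in oligodendrocytes, with the Sox letters CTTTGT, or their reverse complement, in capitals.
Mobp (GRCm38.p6, chr9:120149492-120149741, plus strand): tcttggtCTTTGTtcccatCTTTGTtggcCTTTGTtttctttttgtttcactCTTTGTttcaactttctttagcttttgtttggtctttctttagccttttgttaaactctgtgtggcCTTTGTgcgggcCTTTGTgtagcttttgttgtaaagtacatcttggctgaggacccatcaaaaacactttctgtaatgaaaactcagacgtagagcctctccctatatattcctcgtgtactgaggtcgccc
This window held 6 such matches. Of the 25 listed genes 17 matched a promoter, and 6 of those windows (35.3%) held at least 1 match, against 16.5% of all windows, and that of Sirt2, the next gene by p, held 0.

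Mag, an adhesion protein of the inner myelin wrap, went from 9.39, 11.13, 10.50 and 12.12 to 14.33 and 14.56 (3.66 ± 0.73, 12.6-fold, adjusted p = 0.0125), and Cldn11, the tight junction protein of myelin, from 8.37, 9.27, 8.24 and 9.74 to 11.96 and 12.37 (3.26 ± 0.56, adjusted p = 0.00736). Cnp, an early myelin enzyme, had levels of 12.64, 12.75, 11.54 and 13.36 and then 14.90 and 14.37 (2.06 ± 0.40, adjusted p = 0.0109). The enzymes of myelin lipid synthesis Fa2h, Ugt8a and Gal3st1 rose 4.21-fold, 6.31-fold and 4.14-fold, and Sirt2 and Tspan2 4.49-fold and 4.5-fold. Mog, a late surface protein of myelin, was well above background only after withdrawal in both channels, and rose at least 1.41-fold (adjusted p = 0.0138). Mbp, the myelin basic protein, did not pass: its proliferating levels were 8.16, 12.58, 11.94 and 14.29, and its differentiating levels 15.19 and 14.61 (3.16 ± 1.44, adjusted p = 0.159). Every differentiating channel was above every proliferating one, and the proliferating replicates spanned a wide range. Without replicate 4 the list's count was 13, and without another single array it was 2 to 5, with 2 without proliferating replicate 1 and 2 without differentiating replicate 1. Without replicates 3 and 4, 5 rose and 1 fell.

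Genes of oligodendrocyte precursors moved both ways. Of 17, 4 rose and 1 fell (median 0.902), and under median centring 2 rose and 2 fell (median 0.487). Without differentiating replicate 1 no member rose, without replicate 4, 7 did, and without replicates 3 and 4, 2 did. C1ql1, a secreted protein of precursors, and Enpp6, a phosphodiesterase of newly formed oligodendrocytes, rose 5.89-fold and 4.43-fold (adjusted p = 0.00281 and 0.00294). Matn4 and Bmp4 rose 3.66-fold and 4.98-fold. Olig2, the factor that specifies the lineage, had levels of 13.37, 13.63, 13.53 and 13.72 and fell to 12.24 and 12.01 (-1.44 ± 0.21, 2.71-fold, adjusted p = 0.00448). The precursor receptor Pdgfra (0.90 ± 0.89) and the proteoglycan Cspg4 (-0.71 ± 0.56) did not pass.

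**Figure D2:**
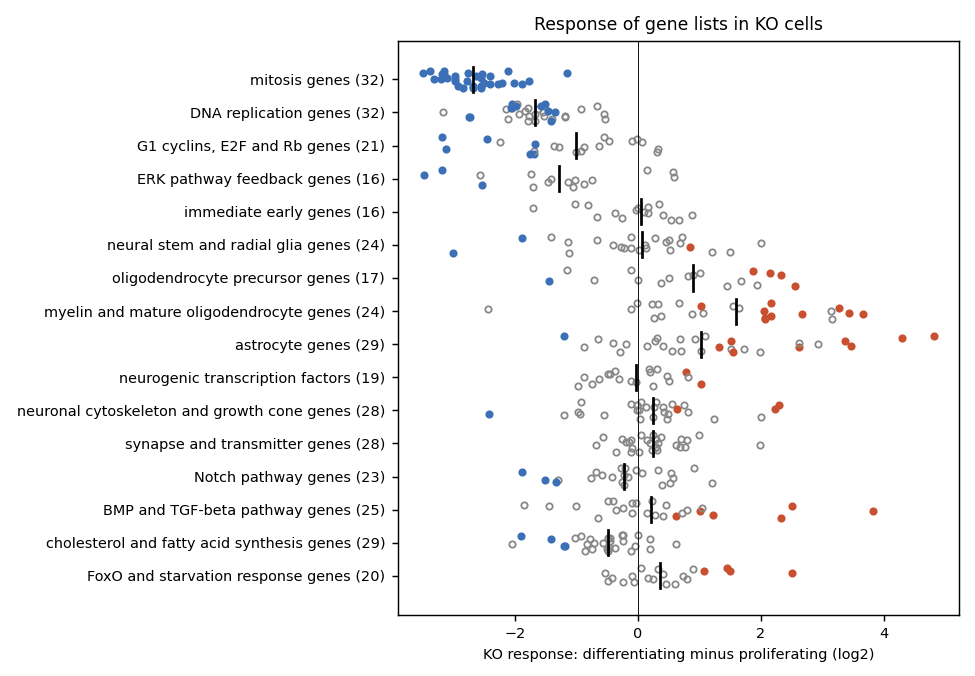
Change in KO cells (differentiating minus proliferating, log2, horizontal axis) of every tested member of 16 gene lists, with the number of members in brackets. Filled points passed (blue fell, red rose), grey open points did not, and black bars are list medians. All 32 mitosis genes lie below 0, the myelin and astrocyte lists have most of their passed genes above 0, and no synapse gene passed.

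In the neuronal lists the passed shares were near or below the 15.2% of all genes that passed in either direction. Of 28 neuronal cytoskeleton and growth cone genes, 3 rose and 1 fell (median 0.249, which turned to -0.0666 under median centring), of 19 neurogenic transcription factors 2 rose, and of 28 synapse and transmitter genes none passed limma's test, with 5 higher at an unadjusted p under 0.05. Dcx, the microtubule protein of migrating neuroblasts, had levels of 7.58, 8.79, 8.0 and 9.08 and then 10.74 and 10.60 (2.30 ± 0.65, 4.93-fold, adjusted p = 0.0426), and Elavl3, a neuronal RNA-binding protein, went from 7.97, 9.69, 8.41 and 9.61 to 11.13 and 11.18 (2.23 ± 0.50, adjusted p = 0.0194). Rbfox3, the neuronal marker NeuN, rose 1.56-fold (adjusted p = 0.0493). Gap43, a growth cone protein, fell from 9.67, 10.40, 10.87 and 8.49 to 7.83 and 7.03 (-2.42 ± 0.65, adjusted p = 0.0356). Each of these 4 calls was lost without proliferating replicate 1, and without replicates 3 and 4, 1 of the list rose and 2 fell. The rises of St18 and Dlx5 concern probes that were not well above background when proliferating, and were at least 1.65-fold and 1.54-fold. Tubb3 (beta-III tubulin), Syt1 (synaptotagmin-1) and Snap25 had changes of 0.82, 0.61 and 0.33 in KO cells (adjusted p = 0.18, 0.216 and 0.496).

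Of 25 BMP and TGF-beta genes 6 rose and none fell, although the list's median was 0.215 (-0.039 under median centring, where 2 rose and 2 fell). Id4 and Id2, inhibitors of basic helix-loop-helix factors that BMP signals induce, had changes of 3.82 ± 1.1 (adjusted p = 0.0444) and 2.50 ± 0.74 (adjusted p = 0.0476). Id4 levels were 10.32, 10.06, 6.48 and 11.53 and then 13.49 and 13.34, so replicate 3 lay far below the others. The inhibitory Smad7, the ligands Bmp6 and Bmp4 and the receptor Bmpr1a rose 2.33-fold, 2.01-fold, 4.98-fold and 1.53-fold. In the Notch pathway 3 of 23 genes fell: Lfng (a glycosyltransferase that tunes the receptor) 2.85-fold, Nrarp (a feedback inhibitor) 2.52-fold, and Hes1. In the Wnt pathway Nkd2 rose 1.78-fold and Wnt5a fell 1.57-fold of 24 genes. The passed shares of the Notch and Wnt lists lay below the 15.2% of all genes that passed in either direction. The count of BMP rises was 6 without replicate 4, 1 without replicates 3 and 4, and 0 to 2 without any other single array, and 1 of the Notch falls passed without replicates 3 and 4.

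Of 29 cholesterol and fatty acid synthesis genes 4 fell (median -0.486): Acly, Fdps, Insig1 and Idi1, by 2.27-fold, 3.74-fold, 2.67-fold and 2.31-fold. Without replicate 4, 8 fell, without any other single array none did, and under median centring 12 did. Of 20 FoxO and starvation response genes 4 rose, which are Foxo1 (2.10-fold), Pink1 (a mitochondrial kinase, 5.64-fold) and the autophagy genes Sqstm1 (2.80-fold) and Map1lc3b (2.73-fold), although under median centring 2 rose and the list's median turned from 0.366 to -0.0104. In the matrix list 6 of 28 fell and 2 rose, among them Lamb1 (4.23-fold lower), Col5a1 (3.35-fold lower), Col5a2 (4.88-fold lower), Spp1 (osteopontin, 9.23-fold lower) and Bcan (the brain proteoglycan brevican, 2.16-fold higher). Of the 17 DNA methylation genes Uhrf1 alone passed. The maintenance enzyme Dnmt1 went from 11.85, 12.29, 12.20 and 10.43 to 10.13 and 10.21 (adjusted p = 0.0513, and 0.00043 without replicate 4), and Dnmt3b, the other de novo enzyme, had a change of -0.43 (adjusted p = 0.121). Interferon and antigen presentation genes split, with Gbp2, Irf9 and Ifit3 rising 7.89-fold, 1.94-fold and 2.92-fold and H2-K1 and Ifitm3 falling 2.61-fold and 3.51-fold. Of 18 p53 pathway genes Trp53 itself rose 1.78-fold (adjusted p = 0.0399) and none fell. The passed shares of the cholesterol, DNA methylation and p53 lists lay below the 15.2% of all genes that passed in either direction. Over all genes tested 9.16% rose and 6.09% fell. Without replicates 3 and 4, 3 cholesterol and 2 matrix genes fell and 3 FoxO genes rose. Without differentiating replicate 1 none of the rises in the FoxO, matrix, interferon and p53 lists passed, and without differentiating replicate 2 none of the falls in the matrix, interferon and Notch lists did.

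Markers of other cells that such cultures could hold were measured as well. Of 17 microglia markers 11 were well above background in no KO channel, among them Aif1, Cx3cr1, Csf1r, Itgam and P2ry12, and of the 5 tested none passed limma's test and 2 had an unadjusted p under 0.05. The summed signal of the list was 3154 to 6035 in proliferating and 5505 to 7828 in differentiating channels. Of 17 endothelial and mural markers 7 were in no KO channel above background, Pecam1, Cdh5 and Cldn5 included, and Pdgfrb, a receptor of pericytes, rose from 6.08, 6.68, 6.83 and 6.99 to 9.90 and 10.43 (3.51 ± 0.35, 11.4-fold, adjusted p = 0.000913), which held without any single array. The list's sum was 7363 to 13073 and then 6756 to 9718. Of 8 tested fibroblast and meningeal markers none passed limma's test and 1 had an unadjusted p under 0.05 (sum 2581 to 3532, then 3461 to 3861). Of 13 tested ependymal and cilia markers 5 rose, Dnaic1 by 2.80-fold among them (7 without replicate 4, 3 without replicates 3 and 4, and 1 or 2 without any other single array), while Foxj1, the factor that commands multiciliated cells, had levels of 10.55 to 11.72 and then 10.39 and 11.33 (sum of the list 7497 to 12473, then 7283 to 10238). Of 7 choroid plexus markers the folate receptor Folr1 rose 3.99-fold, Ttr and Kl were in no KO channel above background, and the list's sum went from 2014 to 9503 up to 11116 to 12850. Of 12 Schwann cell and neural crest markers Erbb3 rose 3.85-fold and Dhh fell, and the sum was 13080 to 50054 and then 49519 to 49766. The part of these cells in the changes above was not tested.

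WT cells on the same arrays responded in a similar number of genes, with 1631 rises (9.04%) and 1059 falls (5.87%). Of the genes that passed in KO cells 1028 also rose and 784 also fell in WT cells, none went the opposite way, and 938 passed in KO cells without passing in WT cells, which does not show that they differ. The difference between the responses, which compares ratios within arrays, passed for 403 genes, with 210 (1.16%) higher and 193 (1.07%) lower in KO cells. This count depended on the fit, and 0 genes passed with a replicate block (813 at an unadjusted p under 0.05, limma). With KO over WT log ratios 9 genes passed (2171 at an unadjusted p under 0.05), of which 8 are among the 403, and 81 passed with the log ratios of the authors' value table, of which 50 are among the 403. Without differentiating replicate 1 or 2, 14 or 112 genes passed in the separate-channel fit, and without proliferating replicate 1, 757 did. Both fits gave the same estimate of the difference, as for Bbox1 (1.78 in each), so their shared sign for all 403 was given in advance. The log ratios of the 2 conditions did not overlap for 393 of the 403, against 18.3% of all genes. Since the 403 were chosen by their p on these same values, that share is no separate support.

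Of the 10 named genes with the smallest p for the difference, 5 were higher in the KO response and 5 lower. Bbox1, the last enzyme of carnitine synthesis, was well above background in no proliferating KO channel (6.06 to 6.34) and reached 8.84 and 9.02, at least 5.57-fold higher, and its response exceeded that of WT cells by 1.78 ± 0.12 (adjusted p = 0.000274, and 0.043 in the ratio fit). Sgk2, a serum- and glucocorticoid-regulated kinase, had changes of 1.53 in KO and 0.17 in WT cells, Slc41a3, a magnesium transporter, 2.20 and 0.42, and Ass1, of arginine synthesis, 2.77 and 0.69. Folr1 is the fifth (1.99 and 0.82). In WT cells Bbox1 was well above background in 0 of 4 proliferating channels, and Sgk2 in 1 of 4 proliferating and 1 of 2 differentiating ones. Cdk6 fell by 2.46 in KO cells and had a change of -0.74 in WT cells (difference -1.72 ± 0.16, adjusted p = 0.00148, and 0.043 in the ratio fit). Its mean went from 10.05 to 7.59 in KO and from 8.25 to 7.51 in WT cells, so the genotypes lay apart mainly when proliferating. Gpr149, an orphan receptor, was well above background in neither differentiating KO channel and in 1 of 4 proliferating WT channels, and its measured changes were 0.19 in KO and 2.64 in WT cells (difference adjusted p = 0.000279, and 0.0386 in the ratio fit). Of the larger changes within KO cells, Hspb8 also differed: it rose 14.8-fold there and had a change of 0.57 in WT cells (difference 3.31 ± 0.40, adjusted p = 0.0037, and 0.0922 in the ratio fit).

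In the mitosis list 8 of 32 genes differed, all with a smaller fall in KO cells (Mki67, Cdc20, Cdca8, Cenpe, Kif20a, Cenpa, Ube2c and Tpx2), and the median changes were -2.69 in KO and -3.75 in WT cells. Mki67 levels after withdrawal were 11.05 and 10.75 in KO cells, and the change was -3.16 in KO and -5.04 in WT cells (difference 1.87 ± 0.30, adjusted p = 0.0159). Cdc20, the activator of the anaphase-promoting complex, had levels of 12.07 and 11.73 in differentiating KO and 9.92 and 9.5 in differentiating WT channels (difference 1.96 ± 0.30, adjusted p = 0.0119). Both differentiating KO channels lay above both WT ones for the 2 genes. None of the 8 passed in the ratio fit, where their adjusted p was 0.0873 to 0.165. In the DNA replication list 0 of 32 genes passed for the difference (median difference 0.362). In the G1 list Cdk6 alone did, with the lower response in KO cells.

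In the myelin and astrocyte lists the differences that passed were all higher in KO cells. In the myelin list 4 of 24 passed, which are Mobp (3.43 in KO and 0.87 in WT cells, difference adjusted p = 0.00234), Tspan2 (2.17 and 0.00, 0.00593), Cnp (2.06 and 0.41, 0.0174) and Mal (1.64 and -0.18, 0.0302). In the astrocyte list 4 of 29 passed, among them Aqp4, Gjb6 and Id3. Aqp4 had changes of 3.47 in KO and 1.01 in WT cells (difference 2.46 ± 0.36, adjusted p = 0.0106), and it alone of these 8 passed in the ratio fit (adjusted p = 0.0386). In the precursor list Enpp6 had the higher response in KO cells (2.15 and 1.02, difference adjusted p = 0.0217) and Lhfpl3 the lower one (0.50 and 2.15, difference -1.65, adjusted p = 0.046). Id3, a BMP target, had a change of -0.65 in KO cells and fell by 2.69 in WT cells (difference adjusted p = 0.00234).

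In the neuronal lists the differences ran the other way. In KO cells 9 of 28 neuronal cytoskeleton genes, 6 of 28 synapse genes and 5 of 19 neurogenic factors had the lower response, and 1 factor, St18, the higher. Tubb3 is counted in 2 of these lists, and the genes are named here after their values were seen. Dcx levels rose by 2.30 in KO and 5.19 in WT cells (difference -2.89 ± 0.45, adjusted p = 0.0143). Syt1, the calcium sensor of synaptic vesicles, had levels of 6.12 to 6.81 and then 7.03 and 7.15 in KO cells, and its change was 0.61 in KO and 2.97 in WT cells (difference -2.37 ± 0.22, adjusted p = 0.00149). Bcl11b (Ctip2), a factor of deep-layer and striatal neurons, had levels of 7.22 to 7.51 and then 6.84 and 6.92 in KO cells, a change of -0.45 against 1.54 in WT cells (difference -1.99 ± 0.15, adjusted p = 0.000399). Myt1l, a neuronal zinc finger factor, had changes of -0.03 in KO and 1.58 in WT cells. Chst1, a sulfotransferase, rose in both, by 2.41 in KO and 3.87 in WT cells. It was well above background in 0 of 4 proliferating WT channels, so its WT change and difference are set against signals near background. Of these lists no gene passed in the ratio fit (Bcl11b 0.0551, Syt1 0.0551, Dcx 0.153). Without proliferating replicate 4, 6 of the 9, 6 of the 6 and 5 of the 6 genes of these lists still differed.

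**Figure D3:**
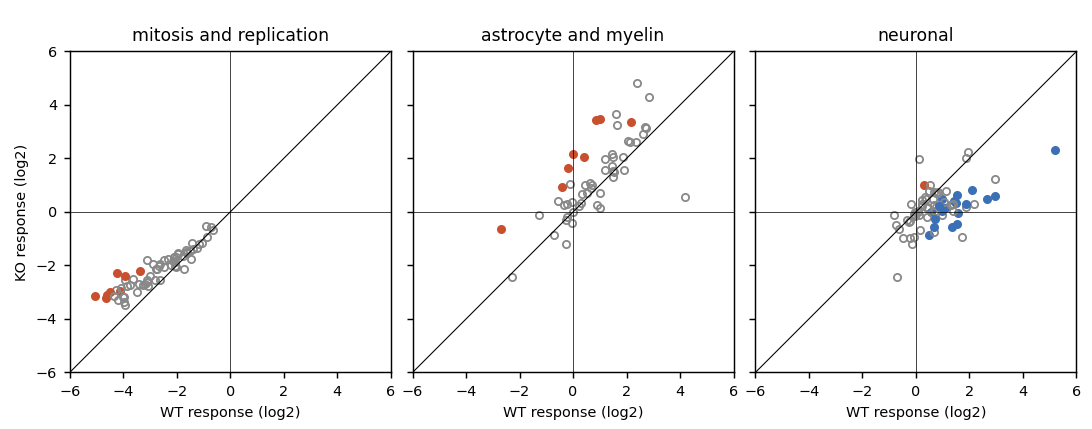
Change after mitogen withdrawal (log2) in KO cells (vertical axis) against WT cells (horizontal axis) for the members of the mitosis and DNA replication lists (left), the astrocyte and myelin lists (middle) and the 3 neuronal lists (right). The diagonal marks equal changes, and filled points are genes whose difference passed (red higher in KO, blue lower). The filled points lie above the diagonal in the left and middle panels and, except for St18, below it on the right.

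**Figure D4:**
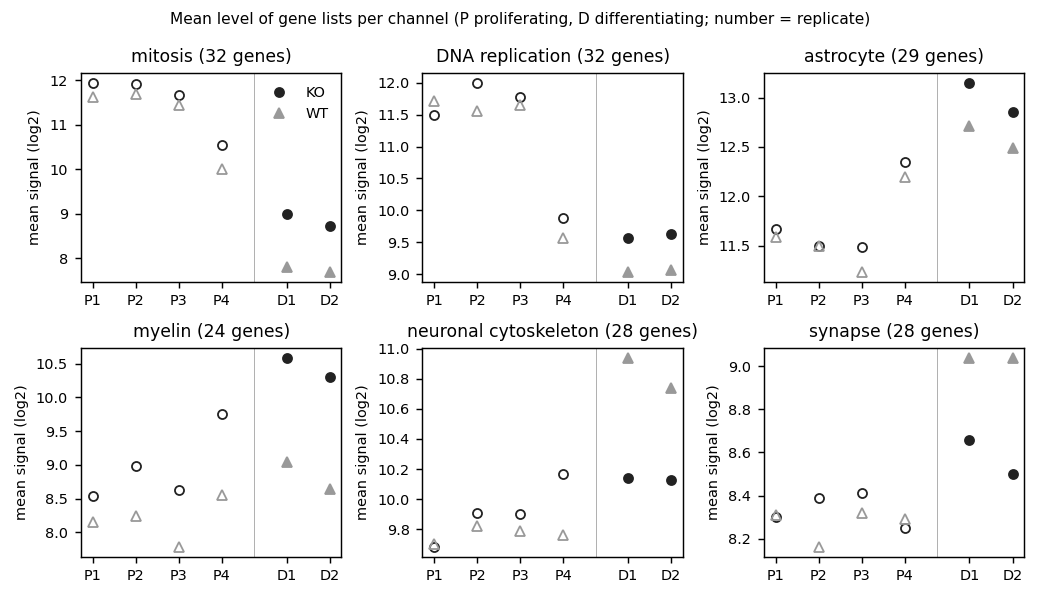
Mean log2 signal of 6 gene lists in each KO channel (circles) and WT channel (triangles), open for proliferating replicates 1 to 4 (P1 to P4) and filled for differentiating replicates 1 and 2 (D1 and D2); each panel has its own vertical range. KO means of the mitosis list are 9.0 and 8.72 in differentiating cells against 7.79 and 7.68 in WT cells, those of the myelin list 10.59 and 10.30 against 9.04 and 8.64, and those of the neuronal cytoskeleton list 10.14 and 10.13 against 10.94 and 10.74.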

How the data were processed

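RNA of Dnmt3a-null and WT cells was measured on 6 Agilent 2-colour arrays (design 014868, probe positions on build mm7). The deposited scanner files hold, per the file headers, uncorrected spot and local background intensities of each dye, made by the authors with Agilent Feature Extraction 9.5.1.1. The deposited value table holds log10 ratios per the file's own values, which run from KO over WT: their correlation with the scanner's processed ratios was 0.956 to 0.996 and each array's median was 0, while no source used here says how the table was centred. Intensities were background-corrected with normexp (offset 50), loess-normalized within arrays and Aquantile-normalized between arrays in limma 3.58.1 (R 4.3.3), leaving out 1639 control spots and outlier spots. The brightest probe stood for a gene with several probes. Genes had to be well above background in either channel, KO or WT, on at least 2 of the 6 arrays. Of the genes tested, 103 were well above background in no KO channel. The separate-channel fit over 12 channels (4 groups and a dye term, intraspot correlation 0.764) gave the KO response, the WT response and their difference, and was tested on simulated data.

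A fold written "at least" compares the bright group with the dim group. Dim signals below the channel's lowest signal well above background were first raised to it. Signals above that floor were kept, so the fold is not a strict lower bound. Of 41174 probes, 22951 were named through RefSeq accessions and the others keep the file's name. The members and gene lists were chosen with earlier results of these data known. Named were Dnmt3a, the 14 largest rises and falls, up to 6 members of smallest p per list with defining markers, and the 10 smallest p-values of the difference. Listed genes without a matching probe were not analysed here, and a few listed genes are not reported here by name. Alternatives were other normalizations, filters, probe choices and dye terms, arrays left out, a replicate block, array weights, KO channels alone, ratios within arrays and the value table. The labels call the replicates biological, and do not say from how many animals or litters. Whether equal replicate numbers pair arrays of the 2 conditions could not be decided.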

Additional observations from a re-analysis of the deposited data

Results flagged for a closer look

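Among the 148 genes named, 9 had a proliferating KO channel far from the other 3, by a gap above Dixon's critical value for 4 samples when divided by the group's range. Chance gives about 1 in 20 such groups, and 919 of all genes tested (5.1%) had one. The gap was 0.964 of the range for Car3, 0.87 for Tyms, 0.857 for Cdkn2c, 0.862 for Hes1, 0.858 for Bmp6, 0.853 for Erbb3, 0.865 for Cenpa and 0.862 for Mal, each with replicate 4 as the far channel. Replicate 3 was the far channel for Glul (0.864). Over all genes replicate 4 was the far channel for 428 of the 919, and replicates 1, 2 and 3 for 138, 144 and 209.

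For 41 named genes the difference between the KO and WT responses passed in limma's separate-channel fit. Some of them were named for the smallest p of this same difference, and others after their values were seen. The count is therefore no separate support. Over all genes tested, 2.23% passed in this fit. With KO over WT log ratios 9 genes passed, and with a replicate block 0 did. Pbk and 8 of 32 mitosis genes fell less in KO cells: the difference was 1.12 for Pbk, 1.16 for Tpx2, 1.5 for Cdca8, 1.87 for Mki67, 1.96 for Cdc20, 1.42 for Kif20a, 1.16 for Cenpa, 1.49 for Cenpe and 1.53 for Ube2c. Of the 32 DNA replication genes, 0 passed for the difference. Cdk6 went the other way (-1.72). Of the glial genes named, Lhfpl3 was lower in the KO response (-1.65), and others were higher, by 2.56 for Mobp, 2.17 for Tspan2, 1.66 for Cnp, 1.82 for Mal, 1.13 for Enpp6, 1.19 for Gjb6, 2.46 for Aqp4 and 0.67 for Bcan. Vim (1.03), Id3 (2.04), Bmpr1a (0.53), Gadd45b (2.14), Gbp2 (2.07), Hspb8 (3.31), Bbox1 (1.78), Sgk2 (1.36), Slc41a3 (1.77), Ass1 (2.08), Folr1 (1.18) and St18 (0.71) were higher as well. Neuronal genes were lower, by -2.89 for Dcx, -1.28 for Tubb3, -0.88 for Rbfox3, -2.37 for Syt1, -1.19 for Snap25, -1.99 for Bcl11b and -1.61 for Myt1l, beside Nrarp (-1.21), Gpr149 (-2.45) and Chst1 (-1.47).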

How the results depend on the processing

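None of the 117 genes that the naming rule chose and that passed in KO cells changed direction under any setting tried. They were chosen by their change or p on these same values, which made a reversal unlikely in advance, so this is no separate support. The 2750 genes of the KO response became 275 to 4727 with 1 array left out, 1203 without proliferating replicates 3 and 4, 5106 with array weights and 1444 with the KO channels fitted alone. The 2690 of the WT response became 203 to 3818 with 1 array left out and 993 without replicates 3 and 4. The 403 of the difference became 14 to 757 with 1 array left out, 703 with quantile normalization, 117 without the dye term, 1876 without replicates 3 and 4, 644 with array weights, 9 with KO over WT log ratios and 81 with the authors' value table. The causes were not tested. Correlations of deviations from the group means of same-numbered KO channels were -0.162 for replicate 1 and -0.119 for replicate 2. They cannot decide whether replicate numbers pair the arrays. With 2 differentiating channels the deviations mirror each other, and same-numbered KO channels carry opposite dyes. A replicate block gave 6333, 5852 and 0 genes (813 of the last at an unadjusted p under 0.05, limma). Median centring turned the split of rises to falls from 1652 and 1098 to 962 and 2837 in KO cells and from 1631 and 1059 to 922 and 2678 in WT cells. A slide block could not be fitted, since each slide held 1 condition. The precision is limited by 2 differentiating arrays, and the folds of genes near background are uncertain.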
